A study of Mus musculus with 2 samples.

Results

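The cardiac developmental transcription factors are the DNA-binding proteins and coactivators that switch on the heart muscle programme in the embryo and remain expressed in the adult heart. The 10 members described here, Gata4, Gata6, Mef2a, Mef2c, Mef2d, Tbx5, Tbx20, Nkx2-5, Hand2 and Myocd, were taken from the deposited table by gene name. Each name matched 1 of 30385 listed entries, and all 10 passed the minimum of 50 reads in whichever library was higher, as did 9507 entries, which are called measured here. The rule uses gene names and no measured value, but the set was proposed with earlier results of these data known.

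The series compared mouse hearts by 5′RNA-seq, a sequencing of polyA RNA without fragmentation in which reads gather near transcript starts. It held 2 libraries: 1 of wild-type (WT) hearts, and 1 of hearts of MHC403/+ mice, which carry a missense mutation in the myosin heavy chain and are a model of hypertrophic cardiomyopathy (HCM). All mice were 129/SvEv, aged 8 to 16 weeks, and mice of both genotypes had received cyclosporine A (CsA), which blocks calcineurin, by subcutaneous injection at 15 mg/kg, 2 times a day for 2 weeks, so no untreated heart was measured. Animals had been pooled before sequencing, in a number not given in the sources used here, and each genotype had 1 library. Differences are therefore unreplicated, and p-values are left out. Ratios are MHC403 over WT of reads scaled to the column totals (5468677 reads in MHC403 and 5481123 in WT), and the ranges after them are exact 95% intervals that cover counting error only.

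These factors act together. GATA zinc finger proteins, the homeodomain protein NKX2-5 and T-box proteins bind neighbouring sites in the enhancers of heart muscle genes and touch each other there. MEF2 proteins, of the MADS-box family, and myocardin, a coactivator of the related protein SRF, add control by calcium, kinases and mechanical load. In adult myocytes GATA4 and MEF2 are known as mediators of hypertrophic signals, including those that pass through calcineurin and NFAT. Whole heart RNA also holds fibroblasts, endothelium and smooth muscle, and several of these factors are expressed there too. In bulk RNA fewer cells of a type and less RNA per cell cannot be told apart.

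With column totals all 10 factors had a ratio above 1, 1 of them (Nkx2-5) passed 2-fold, 9 stayed within it and none was lower by as much. Among all measured entries 26.1% were at least 2-fold higher and 2.43% at least 2-fold lower. Together the 10 factors took 848 reads per 1000000 (RPM) in MHC403 and 531 RPM in WT, a ratio of 1.60 (1.52 to 1.67), or 1.43 (1.35 to 1.51) for the 9 without Nkx2-5. Their median log2 ratio was 0.44 (1.36-fold), which lay 0.13 below the median of 0.57 (1.48-fold) over all measured entries. Of the 10, 4 lay above that median of all entries (Nkx2-5, Gata6, Mef2d and Gata4) and 6 below it. The share of the members past 2-fold was thus not above the share among all entries. At 1.5-fold 4 factors were higher and none lower, against 49.1% and 5.62% of all entries. An interval wholly past 2-fold was found for none of the factors, and for 12.6% of all entries upward and 1.04% downward. The background at 2-fold was 27.5% upward and 2.9% downward with a minimum of 20 reads, 24.7% and 2.5% with 200 reads, and 26.5% and 2.4% without entries with overlapping windows, and Nkx2-5 was the 1 factor past 2-fold in each of these.

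The direction of most of these ratios depended on the scaling. Reads of the mitochondrial chromosome took 13.7% of the MHC403 library and 29.5% of the WT library, and median-of-ratios scaling lowered every log2 ratio by the same 0.55. The share of all measured entries at least 2-fold higher was 10.9% with that scaling, and 7.59% were at least 2-fold lower. TMM scaling gave 10.9% and 7.55%, upper quartile scaling 10.5% and 7.84%, and totals without mitochondrial reads 16.1% and 4.21%. Under none of these 4 scalings was a factor past 2-fold. Under median-of-ratios scaling 4 ratios were above 1 and 6 below 1. The counting interval then lay wholly above 1 for Nkx2-5, Gata6 and Mef2d, wholly below 1 for Hand2 and Mef2a, and included 1 for the other 5. With column totals it lay wholly above 1 for 8 factors and included 1 for Mef2a and Hand2, with 63.2% of all measured entries wholly above 1 and 10.3% wholly below it. With median-of-ratios scaling these shares of all entries were 29.6% and 28.4%.

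**Figure D1:**
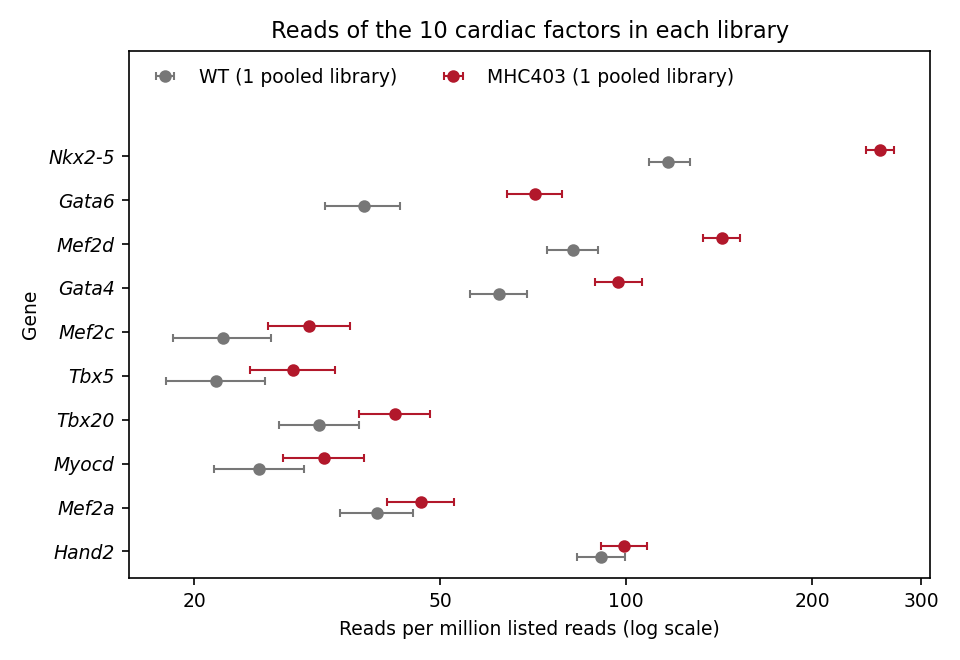
RPM over all listed reads (log axis) of each of the 10 factors in the WT (grey) and the MHC403 (red) library, with exact 95% Poisson intervals as bars. The 2 intervals are apart for Nkx2-5, Gata6, Mef2d and Gata4 with column totals, and overlap for Hand2 (99.1 against 91.0 RPM).

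Nkx2-5 (chromosome 17, 26975610 to 26978510 on the mm9 build, minus strand) encodes the homeodomain protein NKX2-5, which is needed for heart tube looping and for the conduction system. It had 1408 reads in MHC403 (257 RPM, 244 to 271) and 644 in WT (117 RPM, 109 to 127). Its ratio of 2.19 (1.99 to 2.41) was the highest of the 10 on the counts as deposited, with Gata6 next, and the lower bound reached just under 2-fold. With median-of-ratios scaling the ratio was 1.5 (1.36 to 1.65), and it was above 1 under all 4 other scalings while past 2-fold under none of them. Of all measured entries 79.2% had a lower ratio. Nkx2-5 made up 30.3% of the reads of the 10 factors in MHC403 and 22.1% in WT.

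The other end of the range was Hand2 (chromosome 8, 59799780 to 59803314, plus strand), a basic helix-loop-helix factor of right ventricle and second heart field. It had 542 reads in MHC403 (99.1 RPM, 90.9 to 108) and 499 in WT (91.0 RPM, 83.2 to 99.4). The ratio was 1.09 (0.962 to 1.23), with an interval that included 1, and 24.1% of all measured entries had a lower one. With median-of-ratios scaling the ratio became 0.745 (0.658 to 0.843), below 1. Both genes have 1 window of 400 bases, so their levels can be set side by side: Hand2 stood at 91.0 RPM beside 117 for Nkx2-5 in WT, and at 99.1 beside 257 in MHC403. The ratio of Nkx2-5 was 2.01 times (1.72 to 2.35) that of Hand2, a comparison in which the library scaling cancels.

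The upstream sequences of these 2 genes and of Mef2d are shown because the reads of this assay gather at transcript starts and because these members mark the ends of the range and the most abundant MEF2 gene. The RefSeq promoter table (GRCm38.p6, another build than that of the deposited table) held windows for 6 of the 10 members (Mef2d, Mef2a, Hand2, Tbx20, Mef2c and Nkx2-5). The 250 bases before the start are printed 5′ to 3′ on the gene's strand, with matches to 8 searched motifs in capitals. The windows are chr17:26841566-26841815 (minus strand) for Nkx2-5, chr8:57320733-57320982 (plus strand) for Hand2 and chr3:88142122-88142371 (plus strand) for Mef2d.
Nkx2-5: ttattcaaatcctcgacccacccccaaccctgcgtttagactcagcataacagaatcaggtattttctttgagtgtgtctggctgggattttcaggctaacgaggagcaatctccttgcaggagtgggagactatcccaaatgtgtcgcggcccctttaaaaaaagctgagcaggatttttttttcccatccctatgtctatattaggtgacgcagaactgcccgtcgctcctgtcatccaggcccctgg
Hand2: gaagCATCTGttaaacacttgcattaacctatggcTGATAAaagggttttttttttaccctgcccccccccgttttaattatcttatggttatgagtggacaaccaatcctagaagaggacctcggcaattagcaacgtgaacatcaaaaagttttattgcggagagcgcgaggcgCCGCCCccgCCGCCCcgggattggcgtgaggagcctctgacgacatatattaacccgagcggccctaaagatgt
Mef2d: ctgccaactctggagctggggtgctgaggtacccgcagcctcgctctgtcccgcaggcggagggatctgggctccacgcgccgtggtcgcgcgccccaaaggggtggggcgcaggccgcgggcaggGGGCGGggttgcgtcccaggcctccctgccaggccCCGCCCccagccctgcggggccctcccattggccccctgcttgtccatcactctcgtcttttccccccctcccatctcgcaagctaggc

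The 8 motifs were searched on both strands of the 250 bases and no 2 matches in the printed windows overlapped. The Hand2 window held the GATA motif TGATAA at positions -215 to -210 from the start, the E-box CATCTG at -246 to -241 and the GC box GGGCGG on the reverse strand at -74 to -69 and -65 to -60. The Mef2d window held the GC box at -124 to -119 and, on the reverse strand, at -89 to -84. The Nkx2-5 window held none of the 8. Among 32851 mouse promoter windows of the same length TGATAA was found in 7.94%, CATCTG in 14.4% and GGGCGG in 32.7%. The NKX2-5 element CACTTNA was found in 10.1% of all windows, the T-box core AGGTGT in 11.8%, TATAAA in 12.4%, the MEF2 site in 0.508% and the CArG box of SRF in 1.47%. Of these last 5, AGGTGT and TATAAA occurred in windows of Mef2c and the other 3 in no member window. Guanine and cytosine made up 73.2% of the Mef2d window and 49.2% of both the Nkx2-5 and the Hand2 window, against a median of 52.4% over all windows. A match is a description of letters and not of binding. The distance from this start to the far end of the gene differed from that in the deposited table by 1 base for Nkx2-5, 0 for Hand2 and 2474 for Mef2d, so it is not known whether the printed Mef2d start is the one counted.

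Both GATA factors were higher in MHC403 with column totals, and with median-of-ratios scaling the interval of Gata4 included 1. GATA4 is the main GATA protein of adult myocytes, and GATA6, also expressed in smooth muscle and fibroblasts, overlaps with it in function. Gata4 (chromosome 14, 63817752 to 63890529, minus strand, 2 annotated starts) had 531 reads in MHC403 (97.1 RPM, 89.0 to 106) and 341 in WT (62.2 RPM, 55.8 to 69.2). The ratio was 1.56 (1.36 to 1.79), or 1.07 (0.930 to 1.23) with median-of-ratios scaling, close to the median of all entries. Gata6 (chromosome 18, 11052508 to 11085633, plus strand) had 389 reads (71.1 RPM, 64.2 to 78.6) and 206 (37.6 RPM, 32.6 to 43.1). The ratio was 1.89 (1.59 to 2.25), or 1.29 (1.09 to 1.54) with median-of-ratios scaling. Gata6 took 42.3% (39.1 to 45.5) of the reads of the GATA pair in MHC403 and 37.7% (33.6 to 41.9) in WT. Its ratio was 1.21 times (0.971 to 1.52) that of Gata4, an interval that includes 1.

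The Gata6 count carries a limit of its own. Its 200-base window overlaps that of AK003136, an entry on the opposite strand that starts 57 bases inside Gata6 and had 71 reads in MHC403 and 64 in WT. How the counting used strand (not given in the sources used here) decides whether antisense reads enter, so reads of the 2 entries cannot be told apart. If all reads of AK003136 were also counted in Gata6, 318 and 142 would remain, a ratio of 2.24 (1.84 to 2.76). Gata6 would then also be past 2-fold and stand just above Nkx2-5 (2.19), so the first place among the 10 depends on this overlap. The AK003136 entry itself had a ratio of 1.11 (0.782 to 1.58).

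Among the MEF2 genes, whose proteins bind A/T-rich sites as dimers and are held in check by class II histone deacetylases, Mef2d had the highest ratio. With column totals and with totals without mitochondrial reads it also lay farthest from 1, whereas with median-of-ratios, TMM and upper quartile scaling Mef2a, below 1, lay farther. Mef2d (chromosome 3, 87946317 to 87973562, plus strand) had 780 reads in MHC403 (143 RPM, 133 to 153) and 449 in WT (81.9 RPM, 74.5 to 89.9). The ratio was 1.74 (1.55 to 1.96), or 1.19 (1.06 to 1.34) with median-of-ratios scaling. Mef2c (chromosome 13, 83643033 to 83806684, plus strand), the MEF2 gene first expressed in the embryonic heart, had 168 reads (30.7 RPM, 26.3 to 35.7) and 122 (22.3 RPM, 18.5 to 26.6). The Mef2c ratio was 1.38 (1.09 to 1.76), or 0.944 (0.743 to 1.2) with median-of-ratios scaling, where it lay below 1. Mef2a (chromosome 7, 74378717 to 74517744, minus strand), prominent in the postnatal heart, had 255 reads (46.6 RPM, 41.1 to 52.7) and 217 (39.6 RPM, 34.5 to 45.2). Its ratio was 1.18 (0.979 to 1.42), or 0.806 (0.670 to 0.970) with median-of-ratios scaling, where the interval lay below 1.

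The make-up of the MEF2 reads, which is free of the scaling, differed between the libraries. Mef2d took 64.8% (62.1 to 67.5) of 1203 MEF2 reads in MHC403 and 57.0% (53.4 to 60.5) of 788 in WT. Mef2a took 21.2% (18.9 to 23.6) in MHC403 and 27.5% (24.4 to 30.8) in WT, and these intervals do not overlap either. The Mef2c shares of 14% (12.1 to 16.1) and 15.5% (13 to 18.2) overlapped. The ratio of Mef2d was 1.48 times (1.18 to 1.84) that of Mef2a and 1.26 times (0.963 to 1.65) that of Mef2c. The fourth MEF2 gene, Mef2b, had 31 reads in MHC403 and 19 in WT, under the minimum of 50.

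The T-box factors had nearly equal ratios. TBX5 is the partner of GATA4 and NKX2-5 whose loss causes a heart and limb syndrome, and TBX20 maintains adult myocyte gene expression. Tbx5 (chromosome 5, 120284672 to 120335227, plus strand) had 158 reads in MHC403 (28.9 RPM, 24.6 to 33.8) and 119 in WT (21.7 RPM, 18.0 to 26.0). The ratio was 1.33 (1.04 to 1.70), or 0.910 (0.713 to 1.16) with median-of-ratios scaling. Tbx20 (chromosome 9, 24527648 to 24578746, minus strand) had 231 reads (42.2 RPM, 37.0 to 48.1) and 175 (31.9 RPM, 27.4 to 37.0). The ratio was 1.32 (1.08 to 1.62), or 0.905 (0.741 to 1.11) with median-of-ratios scaling. Tbx5 took 40.6% (35.7 to 45.7) of the reads of this pair in MHC403 and 40.5% (34.8 to 46.3) in WT, and its ratio was 1.01 times (0.730 to 1.39) that of Tbx20. At this depth a difference between them of up to 1.39-fold would lie inside the interval.

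Myocd (chromosome 11, 64990072 to 65083491, minus strand) encodes myocardin, which does not bind DNA by itself but drives smooth and cardiac muscle genes through SRF. It had 178 reads in MHC403 (32.5 RPM, 27.9 to 37.7) and 140 in WT (25.5 RPM, 21.5 to 30.1). The ratio was 1.27 (1.02 to 1.60), or 0.872 (0.695 to 1.10) with median-of-ratios scaling. Its partner Srf had 1029 reads in MHC403 and 407 in WT, a ratio of 2.53 (2.26 to 2.85), or 1.73 with median-of-ratios scaling. The ratio of Srf was 1.99 times (1.54 to 2.57) that of Myocd. The related coactivator Mkl1, which shuttles with actin, had 71 reads and 35, a ratio of 2.03 (1.34 to 3.14) that was 1.60 times (0.984 to 2.61) that of Myocd.

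**Figure D2:**
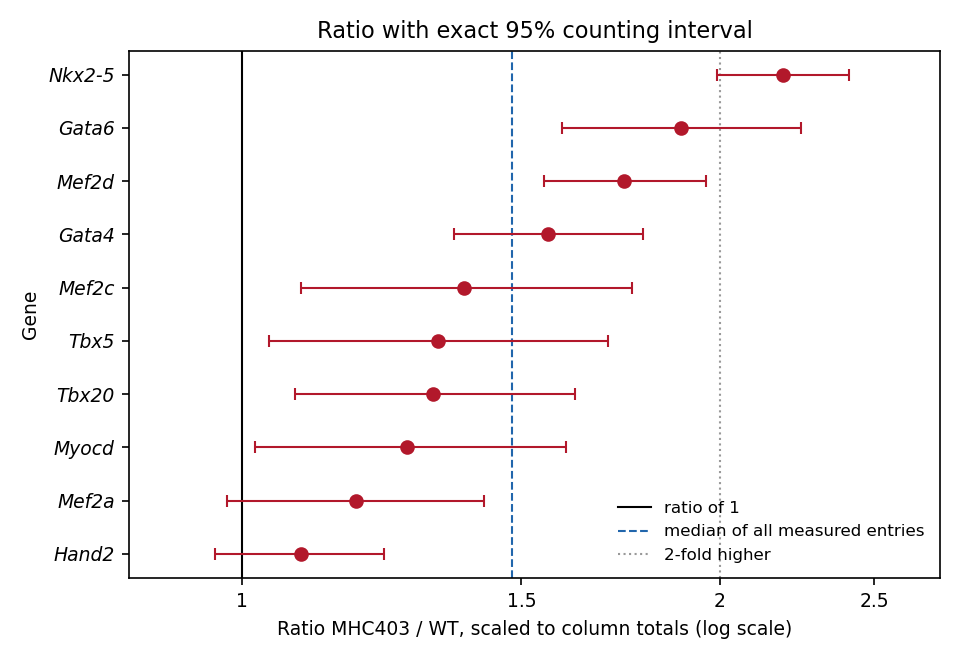
Ratio of MHC403 over WT for each factor (log axis, column totals) with exact 95% counting intervals as bars, in order of the ratio. Nkx2-5 stands highest at 2.19 and Hand2 lowest at 1.09 on the counts as deposited; the dashed line marks the median of all measured entries (1.48), near which median-of-ratios scaling places a ratio of 1, and 6 factors lie to its left.

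Of the 45 pairs that the 10 factors form, the ratio of ratios had an interval wholly above 1 in 20, with no adjustment over the pairs. Nkx2-5 accounted for 8 of these 20, standing above every other factor except Gata6, from which it differed 1.16 times (0.949 to 1.41). Gata6 stood above Mef2a (1.61 times, 1.24 to 2.07), Hand2 (1.74 times, 1.40 to 2.15) and Myocd (1.49 times, 1.11 to 1.98). Mef2d stood above Hand2 by 1.60 times (1.35 to 1.90). Gata4 stood above Hand2 by 1.43 times (1.19 to 1.73) and above Mef2a by 1.33 times (1.05 to 1.67). Among Mef2c, Tbx5, Tbx20, Myocd, Mef2a and Hand2 no pair had an interval apart from 1. These pair values do not depend on how the libraries were scaled.

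**Figure D3:**
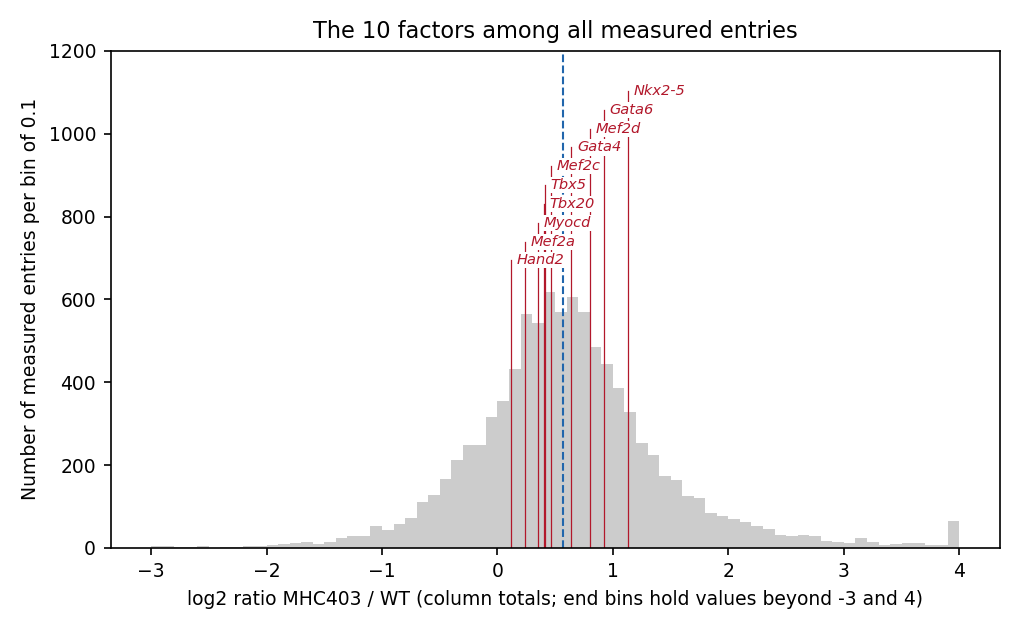
Number of measured entries (bins of 0.1) by log2 ratio MHC403 over WT with column totals, with the 10 factors as red lines and the median of all entries (0.57) as a dashed line. The factors lie between 0.12 and 1.13, inside the main body of the distribution and on both sides of its median.

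Levels between genes were compared as RPM per kilobase of the windows that the table lists around each start, since members differ in window length (200 bases for Gata6, 711 for Gata4, 800 for Mef2a, 1600 for Mef2c and 400 for the others). In WT the order was Nkx2-5 (294, 271 to 317), Hand2 (228, 208 to 248), Mef2d (205, 186 to 225), Gata6 (188, 163 to 215), Gata4 (87.5, 78.5 to 97.3), Tbx20 (79.8, 68.4 to 92.6), Myocd (63.9, 53.7 to 75.4), Tbx5 (54.3, 45.0 to 65.0), Mef2a (49.5, 43.1 to 56.5) and Mef2c (13.9, 11.6 to 16.6). Neighbours in this WT order had overlapping counting intervals except between Nkx2-5 and Hand2, Gata6 and Gata4, and Mef2a and Mef2c. In MHC403 Nkx2-5 again had the highest level per kilobase (644), followed by Mef2d (357), Gata6 (356) and Hand2 (248), so Hand2 moved from the second to the fourth place. The other 6 kept their order, from Gata4 (137) to Mef2c (19.2). Windows of unused starts lower such a level in genes with several starts. The short window of Gata6 raises its level, since reads gather near the start. In RPM Gata6 stood below Gata4 in both libraries (37.6 against 62.2 in WT, 71.1 against 97.1 in MHC403). Reads of the overlapping AK003136 entry equal 31.1% of its WT count and 18.3% of its MHC403 count. The place of Gata6 in this order is therefore uncertain.

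The assay was designed to read start sites, and the table gives 1 count per gene over all starts. Of the 10 factors 7 have 1 annotated start, Gata4 and Mef2a have 2 and Mef2c has 4. The authors' deposited table gives a start-site score, a whole number with a formula not given in the sources used here, of 32 for Mef2c, 19 for Gata4, 13 for Mef2a, 8 for Hand2 and 5 for Mef2d, and of 0 for the other 5. Of the 10483 entries with at least 20 reads in both libraries 34.7% have a score above 0 in the authors' deposited table, and 3.52% reach the score of Mef2c. The score in the authors' deposited table was above 0 for all 3 factors with several starts and for 2 of the 7 with 1 start, against 40.1% of all such entries with several starts and 31.7% of those with 1. What the score says of single starts is not known, since it is above 0 also for genes with 1 annotated start.

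For Mef2c an overlapping entry gives a partial view of its starts. AK043267, on the same strand, starts 20879 bases after the first Mef2c start and its window lies almost wholly inside the second Mef2c window. It had 12 reads in MHC403 and 10 in WT, which equal 7.14% and 8.20% of the Mef2c reads. Without those reads the Mef2c ratio would be 1.40 (1.09 to 1.80), against 1.38 with them. If both entries were counted in the same way, most Mef2c reads lay outside that stretch in both libraries.

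Other transcription factors of the developing heart were measured less often. Of 27 such genes 11 were measured; 2 were past 2-fold upward, 1 downward and 8 neither, at a median log2 ratio of 0.03, which lay 0.54 below that of all measured entries, of which 26.1% were past 2-fold upward and 2.43% downward. With median-of-ratios scaling 0 were higher and 3 lower, beside 10.9% and 7.59% of all measured entries. The higher genes were Tbx2, a T-box repressor of chamber genes (60 reads against 25 in WT, 2.41-fold, 1.49 to 4), and the Notch target Heyl (211 against 101, 2.09-fold, 1.64 to 2.68). Hey1, a Notch target of atrial and vascular cells, was 2.26-fold (1.45 to 3.60) lower, with 30 reads against 68. Tbx2 reached the read minimum in MHC403 only and Hey1 in WT only. For these genes being measured and being past 2-fold are not independent. Meis1, a homeodomain factor linked to myocyte cell cycle exit, had 142 reads against 72, a ratio of 1.98 (1.48 to 2.66). Hopx and Esrrg, named because they joined Hey1 as lower with median-of-ratios scaling, were 1.52-fold (1.42 to 1.63) and 1.47-fold (1.11 to 1.95) lower with column totals. Hopx encodes a homeodomain protein without DNA binding that acts downstream of NKX2-5, and the ratio of Nkx2-5 was 3.33 times (2.96 to 3.75) that of Hopx. The embryonic factors Hand1, Isl1 and Nkx2-6 had 0 reads in both libraries, and Gata5 had 1 read in MHC403 and 0 in WT.

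Partners and cofactors of the 10 factors had a median log2 ratio of 0.53, which lay 0.04 below that of all entries. All 28 were measured, with 6 past 2-fold upward, 0 downward and 22 neither, which is no larger a share upward than the 26.1% of all measured entries. Of the 6, Srf alone had the 200 reads of the higher minimum. Mkl1, another of the 6, reached the main read minimum in MHC403 only. For Mkl1 being measured and being higher are therefore not independent. With median-of-ratios scaling 0 were higher and 3 lower (Fhl2, Klf15 and Foxo4), beside 10.9% and 7.59% of all measured entries. The 6 were Srf, Mkl1, Sap30, a subunit of a deacetylase complex (2.02-fold, 1.49 to 2.77), the GATA cofactor Zfpm1 (2.04-fold, 1.54 to 2.73), and the calcineurin-controlled factors Nfatc1 (2.42-fold, 1.76 to 3.36) and Nfatc2 (2.19-fold, 1.64 to 2.95). Zfpm2, the GATA4 cofactor of the heart, had 71 reads against 54, a ratio of 1.32 (0.912 to 1.91). Its ratio was 0.844 times (0.569 to 1.26) that of Gata4. The class II deacetylases that bind MEF2 were all within 2-fold. Hdac7 had a ratio of 1.79 (1.51 to 2.13), Hdac4 of 1.2 (0.795 to 1.81), Hdac5 of 1.05 (0.898 to 1.22) and Hdac9 of 0.95 (0.645 to 1.40). Fhl2, a LIM protein that binds SRF, was 1.71-fold (1.62 to 1.79) lower.

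**Figure D4:**
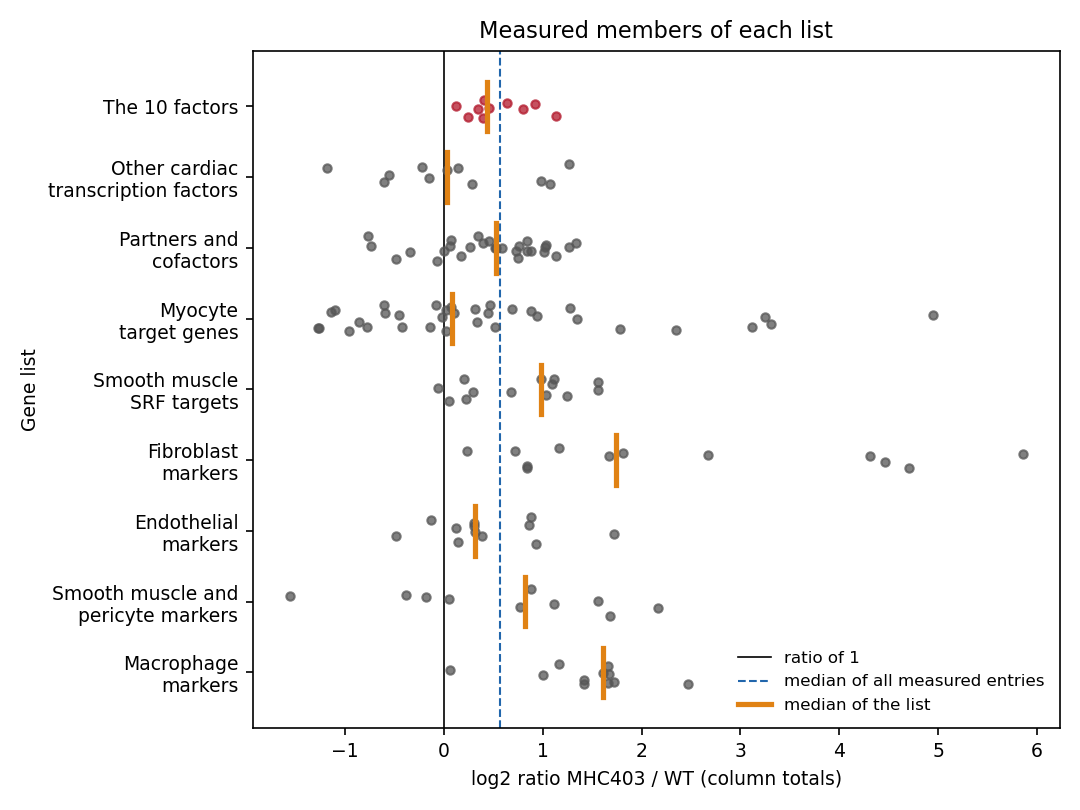
log2 ratio MHC403 over WT (column totals) of each measured member of 9 gene lists as points, with the median of each list (orange bar), a ratio of 1 (solid line) and the median of all measured entries (dashed line). The 10 factors span 0.12 to 1.13, while single myocyte target genes lie as far apart as Nppa (4.95) and Myh6 (-1.27).

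Among genes listed as targets of these factors in myocytes some lay far to either side of the factors themselves, while most stayed within 2-fold. Of 38 listed, 34 were measured; 8 were past 2-fold upward, 4 downward and 22 neither, at a median of 0.09. Beside the 26.1% of all measured entries upward and 2.43% downward, the upward share with column totals was not above the background, while the downward share was above it. Median-of-ratios scaling made this 6 upward and 9 downward, with 10.9% and 7.59% of all entries, so both shares were then above the background. Nppa, a target of GATA4, NKX2-5 and TBX5 that encodes atrial natriuretic peptide, had a ratio of 30.8 (29.7 to 32.0), which was 14.1 times (12.7 to 15.6) that of Nkx2-5. Xirp2, a MEF2 target at the Z-disc, was 9.90-fold (9.18 to 10.7) higher, skeletal actin Acta1 9.54-fold (8.59 to 10.6) and brain natriuretic peptide Nppb 8.69-fold (8.13 to 9.28). The 4 lower genes were the myosin genes Myh6, Myh7 and Myl2 and the calcium pump Atp2a2. Myh6, a target of GATA4, MEF2 and TBX5, was 2.40-fold (2.38 to 2.43) lower. Myh6 and Myh7 are close copies of each other, so the split of reads between them is uncertain. The mutation of the MHC403/+ mice itself lies in a myosin heavy chain, and its part in these values was not tested. The target list thus held ratios above and below those of every one of the 10 factors.

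Smooth muscle genes that myocardin and SRF control were divided. Of 17 listed, 13 were measured; 6 were past 2-fold upward, 0 downward and 7 neither, at a median of 0.98, which lay 0.41 above that of all measured entries, of which 26.1% were past 2-fold upward. With median-of-ratios scaling 2 of them, Acta2 and Synpo2, were 2-fold higher and 0 lower, with 10.9% of all entries higher. The actin-binding protein Synpo2 had 1135 reads against 385 (2.95-fold, 2.63 to 3.33), smooth muscle actin Acta2 693 against 236 (2.94-fold, 2.54 to 3.43), Csrp1 353 against 149 (2.37-fold, 1.96 to 2.90) and transgelin, Tagln, 335 against 156 (2.15-fold, 1.77 to 2.62). The smooth muscle myosin Myh11 had 166 reads against 161, a ratio of 1.03 (0.827 to 1.29), and shares its window with another entry. Smtn (1.14), Mylk (1.23), Tpm1 (1.17) and Ppp1r12b (0.96) also had ratios near 1. Vcl (1.98) and Pgm5 (1.6) lay between these genes and those past 2-fold. Leiomodin, Lmod1, had 17 reads against 45, under the minimum of 50, and was 2.64-fold (1.48 to 4.92) lower, so it counts as 1 lower gene at a minimum of 20 reads. Also under the minimum of 50, Cnn1 had 21 reads against 12, Actg2 14 against 0 and Itga8 5 against 10. Acta2 and Tagln are also expressed by activated fibroblasts.

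Markers of other cell types differed between the libraries too. Of 12 fibroblast markers, all measured, 8 were at least 2-fold higher and 0 lower, beside 26.1% and 2.43% of all measured entries, and their summed level was 2890 RPM in MHC403 and 513 in WT. They were led by Postn, Mfap5, Col1a1 and Col3a1, while Tcf21, a transcription factor of resident fibroblasts, had 68 reads against 38 (1.79-fold, 1.19 to 2.74) and Pdgfra 276 against 123 (2.25-fold, 1.81 to 2.80). Of 11 measured macrophage markers 10 were higher and 0 lower, with 835 RPM against 279. Of 12 endothelial markers 1 (Cldn5) was higher and 0 lower, with 878 RPM against 673, a ratio of 1.31 (1.25 to 1.36). Of 10 measured smooth muscle and pericyte markers 4 were higher and 1 (Abcc9) lower, with 659 RPM against 562, a ratio of 1.17 (1.12 to 1.23). Median-of-ratios scaling lowers every ratio 1.46-fold, which brings the endothelial and the smooth muscle and pericyte sums below 1. With that scaling the median log2 ratio went from 0.31 to -0.24 for endothelial markers and from 0.82 to 0.28 for smooth muscle and pericyte markers. Both measured endocardial markers (Nfatc1 and Plvap) and both measured epicardial and mesothelial ones (Krt18 and Aldh1a2) were higher, with summed levels of 78.8 RPM against 27.7 and 55.2 against 12.4. Plvap (195 reads against 23), Krt18 (78 against 5) and Aldh1a2 (59 against 6) reached the minimum of 50 reads in MHC403 only. For such genes being measured and being higher are not independent. Some fibroblast and macrophage markers, among them Postn (1103 against 19) and Cd68 (249 against 45), passed in the same way. Among endocardial markers under the minimum, Npr3 had 38 reads against 29, Cytl1 35 against 38 and Tmem108 28 against 6. With median-of-ratios scaling 7 fibroblast, 6 macrophage, 1 endothelial and 3 smooth muscle and pericyte markers were still past 2-fold upward, and 1 endothelial and 1 smooth muscle and pericyte marker downward. Among all measured entries the shares with that scaling were 10.9% upward and 7.59% downward. The endocardial marker Hapln1 had 0 reads in both libraries and the epicardial marker Krt8 had 9 in MHC403 and 0 in WT. The part of these cell types in the ratios of Gata4, Gata6, Mef2c, Tbx20, Hand2 and Myocd was not tested.

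Heart muscle and ventricular markers were read in both libraries. Troponin T, Tnnt2, listed among the myocyte target genes and not as a ventricular marker, had 61930 reads in MHC403 and 58949 in WT. The summed level of 6 ventricular markers was 10300 RPM in MHC403 and 21200 in WT. Of the 6, 5 were measured, 1 (Myl2) was at least 2-fold lower and 0 were higher, beside 2.43% and 26.1% of all measured entries. Myl2 alone made up 6600 and 15800 RPM of these sums. With median-of-ratios scaling 3 were lower (Myl2, the light chain Myl3 and phospholamban, Pln), beside 7.59% of all measured entries. With column totals the ratios of Myl3 and Pln were 0.653 and 0.513. Lbh, a transcriptional cofactor, went the other way with column totals, with 3417 reads against 2477 and a ratio of 1.38 (1.31 to 1.46), or 0.946 with median-of-ratios scaling. Irx4, a ventricular transcription factor, had 77 reads against 70, a ratio of 1.10 (0.787 to 1.55). The atrial markers were near the floor apart from Nppa and Dkk3, both higher in MHC403. Dkk3 had 92 reads in MHC403 but 7 in WT, where it too was near the floor. It reached the read minimum in MHC403 only, so its being measured and its being higher are not independent. The atrial light chain Myl7 had 31 reads against 27, Myl4 24 against 19, sarcolipin, Sln, 2 against 3, Dhrs9 3 against 0 and Bmp10 0 in both. The summed atrial level of 17000 RPM against 567 was therefore almost wholly Nppa.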

How the data were processed

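Heart RNA of WT and MHC403/+ mice was measured by 5′RNA-seq, 1 pooled library per genotype, grouped by the genotype label. The submitters' processing notes name TopHat 1.0.14 and mm9; counting program, strand use and the treatment of multiply mapped reads were not stated there. The authors' table holds, per the file headers, raw read counts for each gene as whole numbers. The deposited normalized reads equal RPM over all listed entries (largest difference 4.94e-06). The authors deposited a fold, the ratio of normalized reads, and a p-value per gene (test not given in the sources used here); neither was used. The authors deposited a score of MHC403 over WT per gene, printed as theirs.

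From the counts, ratios of reads scaled to column totals were computed with exact (Clopper-Pearson) 95% intervals conditional on the reads of both libraries, exact Poisson intervals of levels, and conditional odds ratio intervals between genes (scipy 1.17.1). The counts are of amplified reads without molecular identifiers, so intervals cover counting error only, without pooling or animal variation. The read minimum for measured entries was 50 in whichever library was higher, and calls were a 2-fold point estimate. TMM and upper quartile scaling used edgeR 4.0.16 and median-of-ratios DESeq2 1.42.0. Transcripts of the 10 factors in GENCODE M21 shared 0 words of 36 bases with each other. The windows of 1418 measured entries (14.9%) overlap those of another entry, among them Gata6 and Mef2c. Table starts are written 1-based.

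Members, gene lists and motifs were chosen with earlier results of these data known. Named genes were all 10 members, up to 4 entries per list whose interval bound lay farthest from a ratio of 1, and Nppa and Myh6; other names were chosen after their values were seen. Pairs, overlap bounds and levels per window were also added after the values were seen. The macrophage list gives Adgre1 under the older symbol Emr1.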

Additional observations from a re-analysis of the deposited data

How the results depend on the processing

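No paired analysis was possible because each genotype had 1 library, and for the same reason no replicate could be left out. The count of 1 factor at least 2-fold higher became 0 with median-of-ratios, TMM and upper quartile scaling and with totals without mitochondrial reads, 0 where the whole interval had to pass 2-fold (12.6% of all measured entries) and 4 at 1.5-fold (49.1% of all measured entries). It was 1 with minimums of 20 and 200 reads and without entries with overlapping windows, and the count of lower factors was 0 in all of these. The median log2 ratio of the factors, 0.44, became -0.11 with TMM and likewise with median-of-ratios scaling, -0.13 with upper quartile scaling, 0.15 with totals without mitochondrial reads and 0.64 over the 7 factors with at least 200 reads. By construction each scaling moves all ratios by 1 factor: Nkx2-5 was 1.79 with totals without mitochondrial reads and 1.48 with upper quartile scaling, and Hand2 0.888 and 0.735. Mef2a, at 0.961, was also below 1 without mitochondrial reads. Adding 0.5 reads to both libraries left all 10 ratios inside their intervals. Tbx5 had the fewest reads of a factor (119 in WT). The counting interval of its ratio was 1.04 to 1.70 with column totals and 0.713 to 1.16 with median-of-ratios scaling.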

Other observations

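Entries listed apart from the factors but lying on or beside their genes gave further values. BSAC2A, described in the table as a myocardin mRNA, starts 87832 bases inside Myocd on the same strand with windows that do not overlap those of Myocd. It had 66 reads in MHC403 and 50 in WT, a ratio of 1.32 (0.902 to 1.95) beside 1.27 (1.02 to 1.60) for Myocd. BC106167, an unnamed transcript on the strand of Mef2d that starts just past its listed end, had 358 reads against 189, a ratio of 1.90 (1.59 to 2.28) beside 1.74 (1.55 to 1.96) for Mef2d. Entries on the opposite strand had ratios unlike those of the factors. AK007191 and AK008852, beside Mef2d and with equal counts, had 64 reads against 18, a ratio of 3.56 (2.09 to 6.39). AK033147, which starts before Gata6, had 68 against 67, a ratio of 1.02 (0.715 to 1.45) beside 1.89 (1.59 to 2.25) for Gata6.

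Some pairs of related heart factors and cofactors were set side by side in a comparison free of the scaling. They were chosen after their values were seen, several because 1 gene stood out, so the values below describe these pairs and say nothing of related genes in general. The ratio of Heyl was 4.74 times (2.83 to 8.01) that of Hey1, that of Tbx2 2.80 times (1.61 to 4.98) that of Tbx3, that of Mkl1 1.95 times (1.22 to 3.17) that of Mkl2 and that of Hdac7 1.71 times (1.36 to 2.16) that of Hdac5. For Zfpm1 against Zfpm2 (1.55 times, 0.964 to 2.49) and Meis1 against Meis2 (1.63 times, 0.977 to 2.70) the interval included 1.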
